A study of Mus musculus with 10 samples.

Results

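The thoracic spinal cord of mice at 1 week after injury was compared with the cord of mice given a sham operation, across all genes that the array annotation names by 1 symbol. Genes named below beyond the largest differences come from lists by function. Of 14847 such genes, 11272 had a log2 signal of at least 3.79 on at least 1 of the 5 gene-level arrays of the study and were compared. The comparison uses 4 of the 10 samples, a gene-level and an exon-level sample of each pool. The injured pool came from wild-type ICR mice, an outbred laboratory stock, taken 1 week after injury at segment T10. The control pool came from wild-type ICR mice after a sham operation, taken at the same segment. The labels give all animals an age of 4 weeks and give sham no time after surgery, so age at collection and time after surgery cannot be told apart from injury. The sources used here do not give the animals' sex or the method and force of injury. RNA of 3 mice per group was pooled in equal amounts, leaving 1 array per group and level, with no replicate and no test. A gene was called higher or lower at 1 week where its log2 signals on the 2 arrays were at least 1 apart, a 2-fold difference.

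By a week after a crush or contusion, blood-derived macrophages and local microglia are known to take up myelin and cell debris in the lesion, and fibroblasts begin to lay down a collagen-rich scar. Astrocytes around the lesion enlarge and divide. Neurons and oligodendrocytes at the site are known to die. In such bulk tissue, fewer cells of a type and less RNA per cell cannot be told apart, and the same holds for more cells and more RNA per cell.

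At 1 week, 1272 genes were at least 2-fold higher than in sham, 11.3% of the genes compared, and 1571 were at least 2-fold lower, 13.9%. Together these were 2843 genes, or 25.2%. The median log2 difference over all genes was -0.06, and the middle of the distribution, from the 25th to the 75th percentile, ran from -0.53 to 0.29. The tails were not mirror images. Genes at least 4-fold higher numbered 550 and genes at least 4-fold lower numbered 426. At 8-fold there were 247 higher and 46 lower genes, at 16-fold 102 and 3, and at 32-fold 43 and 0. Higher genes had a median log2 signal of 7.24 at 1 week and 4.96 in sham, while lower genes had 5.59 at 1 week and 7.41 in sham. In sham, the higher genes were thus typically dimmer than the lower genes. A difference is marked "rough" below where at least 1 of its 2 signals lay under 3.79. With such a dim signal the size is only approximate, and with 1 array per group the sign was not tested. Rough differences are those of 269 of the higher genes, dim in sham, and of 144 of the lower genes, dim at 1 week. These include 2 genes each way with both signals under 3.79.

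**Figure D1:**
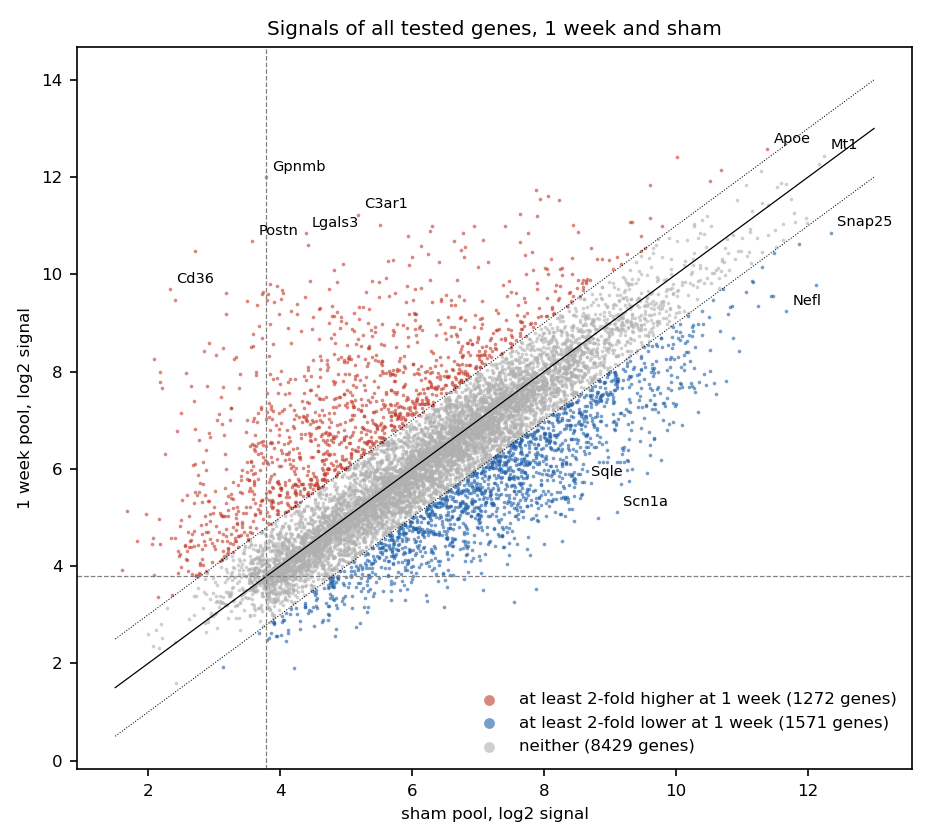
Each point is 1 of 11272 genes, with its log2 signal in the sham pool on the x axis and in the 1 week pool on the y axis. Solid and dotted lines mark equality and 2-fold, dashed lines the filter level of 3.79. The 1272 higher genes (red) reach farther from the line of equality, up to Gpnmb with a log2 difference of 8.22, than the 1571 lower genes (blue).

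The tissue label was checked against markers of the cord and of tissues that dissection or injury can add. Of 30 measured Hox genes, which keep the position code of the body axis, Hoxc8 had a log2 signal of 8.52 at 1 week and 9.71 in sham (log2 difference -1.19). Neuronal, astrocytic and oligodendrocyte markers were bright on both arrays, as Snap25, Aqp4 and Mbp show below. Of 10 listed erythrocyte genes 2 passed the filter, and the globin gene Hba-a1 was not among them. Those 2 included Alas2, the first enzyme of haem synthesis in red cells, with a log2 signal of 5.14 at 1 week and 7.64 in sham (log2 difference -2.51). Of 13 measured skeletal muscle genes, 4 were higher and 1 lower at 1 week, with Acta1, the actin of muscle fibres, at 6.83 at 1 week and 5.25 in sham (log2 difference 1.58), and Tnnc2, the calcium sensor of fast fibres, at 5.90 at 1 week and 4.22 in sham (log2 difference 1.67). The 4 measured muscle markers used as a check summed to 229 linear signal units at 1 week and 101 in sham. In the same units the 8 macrophage markers summed to 10084 at 1 week and 133 in sham, and the 7 fibroblast markers to 10547 at 1 week and 542 in sham. The part of muscle RNA in the results below was not tested. Of other cell types that an injured cord could hold, 3 of 11 measured Schwann cell genes were higher, among them Egr2, a factor of myelination in these cells, with a log2 signal of 6.05 at 1 week and 4.01 in sham (log2 difference 2.04). Of 5 measured genes of ependyma none was 2-fold different, and 1 of 3 B cell genes was higher. Their part in the results was not tested either.

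The gene-level table was compared with the exon-level table, in which each gene has several probe sets of its own. Of 1180 higher genes with at least 4 measured probe sets, 1177 had a probe set median above 0 and 1153 had a median of at least 2-fold. In 828 of them every probe set was higher at 1 week. Of 1432 lower genes with at least 4 probe sets, 1430 had a median below 0, 1384 had a median at least 2-fold lower, and 1161 had every probe set lower. Across the genes measured at both levels, Pearson's r was 0.97, a correlation over genes of the same pools and not over replicates. The median gap between the levels was 0.13 on the log2 scale. Both tables carry the same group labels, so this shows how far the probes of a gene agree within 1 pair of pools and carries no information on how mice differ. For Clec7a, Sfrp4, S100a8, Cd4, Cd22, H2-Aa, Gal, Epha3, Osr1, Plk1 and Runx1, the probe set median exceeded the gene-level difference by more than 0.58 on the log2 scale. Calls with both signals at or above 3.79, at least 4 probe sets and at least 75% of them on the gene's side numbered 953 higher and 1336 lower.

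The gene-level table holds a feature that limits every value near 0. For 790 of the compared genes, 7.01%, the deposited values at 1 week and in sham were identical to the last decimal, at log2 signals from 2.91 up to 9.23. At the exon level 703 of these had at least 4 probe sets, and their medians lay between -1.08 and 1.58, with a typical size of 0.12. The other genes had a typical probe set median of 0.63. Only 349 of the probe sets, 0.15%, were identical on the exon-level arrays. A gene-level difference of exactly 0 is therefore not a measurement of no change. By definition, none of the 2-fold calls can come from such a gene.

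**Figure D2:**
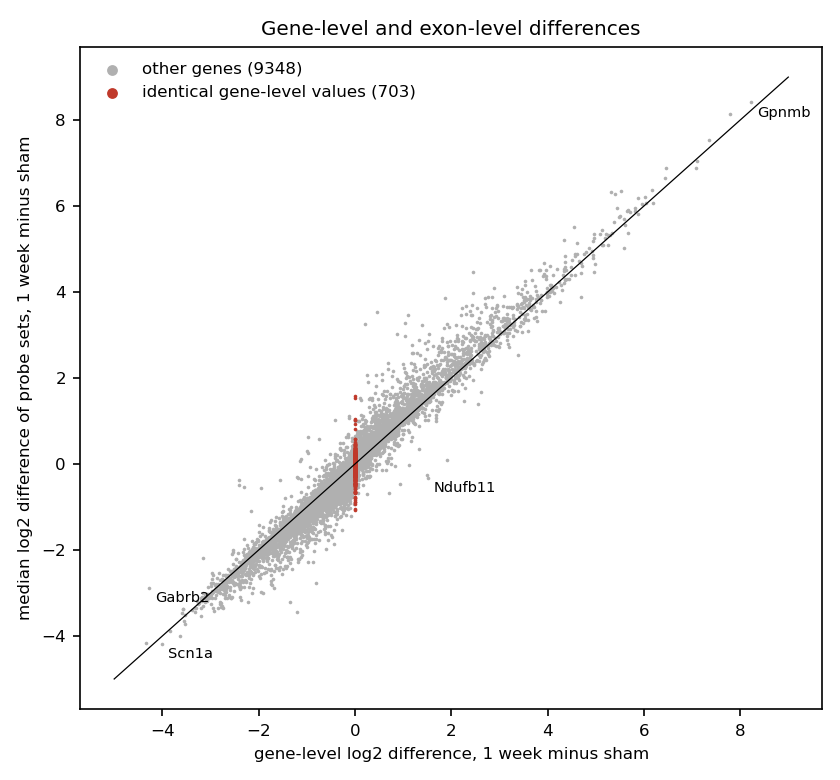
Each point is 1 gene with at least 4 probe sets, with its gene-level log2 difference (1 week minus sham) on the x axis and the median log2 difference of its probe sets on the y axis. The line marks equality. The 703 genes with identical gene-level values (red) form a vertical strip at 0, and Ndufb11 lies among the few genes whose levels disagree in sign.

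Among genes measured above the filter level on both arrays and borne out by their probe sets, the largest positive difference was in Lgals3, galectin-3, a sugar-binding protein of activated macrophages. It had a log2 signal of 10.85 at 1 week and 4.39 in sham (log2 difference 6.46), and its probe sets gave 6.90 ± 1.29 (median ± SD over 8 probe sets). H19, an imprinted long noncoding RNA of embryonic and mesenchymal tissue, came next with a log2 signal of 10.61 at 1 week and 4.42 in sham (log2 difference 6.19). C3ar1, the receptor for the complement fragment C3a, had a log2 signal of 11.23 at 1 week and 5.17 in sham (log2 difference 6.05). In sham these 3 lay near the array's median log2 signal of 4.60, and at 1 week far above the median of 4.59. Others of the 15 largest are known from phagocytes. Acp5, the tartrate-resistant acid phosphatase, had a log2 signal of 9.76 at 1 week and 3.96 in sham (log2 difference 5.81). Hpse, heparanase, which cleaves heparan sulfate, had a log2 signal of 9.48 at 1 week and 3.80 in sham (log2 difference 5.68). Cd68, a lysosomal membrane glycoprotein of macrophages, had a log2 signal of 11.01 at 1 week and 5.51 in sham (log2 difference 5.50). Further members of the 15 encode secreted and matrix proteins. Mfap5, a microfibril glycoprotein, had a log2 signal of 9.49 at 1 week and 4.01 in sham (log2 difference 5.48), and Sfrp4, a secreted antagonist of Wnt ligands, had a log2 signal of 9.87 at 1 week and 4.46 in sham (log2 difference 5.41). Thbs1, thrombospondin-1, had a log2 signal of 10.10 at 1 week and 4.81 in sham (log2 difference 5.29), with probe sets at 5.33 ± 0.94 (median ± SD over 27 probe sets). Hmox1, haem oxygenase-1, which breaks down haem, had a log2 signal of 10.22 at 1 week and 4.95 in sham (log2 difference 5.26). Cd84, Apobec1, Clec7a, Igsf6 and Anpep completed the 15, with log2 differences from 5.16 (Anpep) to 5.66 (Cd84).

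Genes that were below the filter level in sham reached further still. Gpnmb, a transmembrane glycoprotein of lipid-laden macrophages, had a log2 signal of 12 at 1 week and 3.78 in sham (log2 difference 8.22, rough), and it stood among the 10 brightest genes of the 1 week array. Atp6v0d2, an alternative subunit of the vacuolar proton pump known from osteoclasts, had a log2 signal of 10.49 at 1 week and 2.71 in sham (log2 difference 7.78, rough). Cd36, a scavenger receptor for oxidised lipid, had a log2 signal of 9.69 at 1 week and 2.33 in sham (log2 difference 7.36, rough). The size of these differences is less certain than of those above, since the sham signal lay under the filter level. Postn, periostin, had a log2 signal of 10.68 at 1 week and 3.58 in sham (log2 difference 7.10, rough), and Msr1, the class A scavenger receptor, had a log2 signal of 9.48 at 1 week and 2.40 in sham (log2 difference 7.08, rough).

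The largest negative differences were smaller in size. Only 3 genes were at least 16-fold lower. Scn4b, an auxiliary sodium channel subunit, had a log2 signal of 3.52 at 1 week and 7.87 in sham (log2 difference -4.35, rough). Gabrb2, a GABA receptor subunit, had a log2 signal of 3.26 at 1 week and 7.55 in sham (log2 difference -4.29, rough), with probe sets at -2.88 ± 1.08 (median ± SD over 16 probe sets). The largest with both signals above the filter level and agreeing probe sets was in Scn1a, the pore subunit of a voltage-gated sodium channel. It had a log2 signal of 5.10 at 1 week and 9.11 in sham (log2 difference -4.0), with probe sets at -4.18 ± 0.68 (median ± SD over 9 probe sets). Gabra5, another GABA receptor subunit, had a log2 signal of 4.98 at 1 week and 8.82 in sham (log2 difference -3.84). Cacng2, stargazin, which carries AMPA receptors to the synapse, had a log2 signal of 5.92 at 1 week and 9.55 in sham (log2 difference -3.64). These 5 genes encode membrane proteins of neurons. Hapln4, a link protein of perineuronal nets, had a log2 signal of 4.93 at 1 week and 8.46 in sham (log2 difference -3.52). Rab3c, a GTPase of synaptic vesicles, had a log2 signal of 4.22 at 1 week and 7.79 in sham (log2 difference -3.57). Nrn1, neuritin, had a log2 signal of 5.75 at 1 week and 9.29 in sham (log2 difference -3.54). The remaining 9, Lamp5, Hecw1, Cnnm1, Tmem130, Elmod1, Syn3, Vstm2a, Scn8a and Mab21l2, had log2 differences from -3.60 (Lamp5) to -3.24 (Mab21l2).

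**Figure D3:**
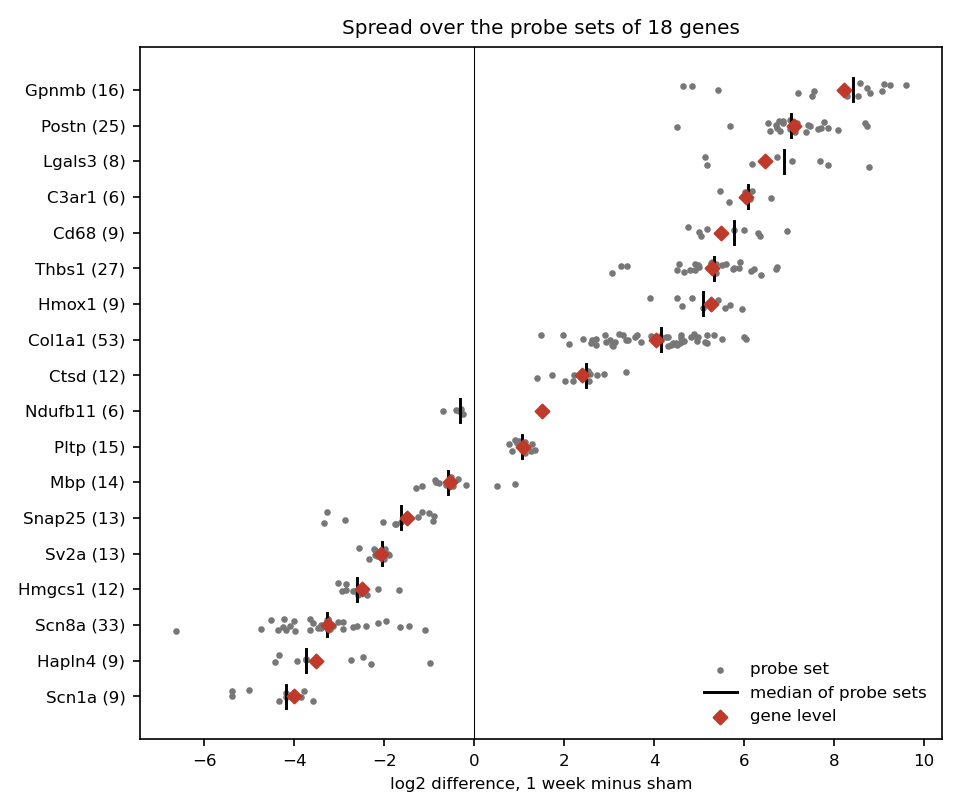
Log2 differences (1 week minus sham) of the probe sets of 18 genes are shown as grey points, their medians as bars and the gene-level values as red diamonds, with the number of probe sets in brackets. All plotted probe sets of Gpnmb, Lgals3, C3ar1, Col1a1 and Postn lie above 0 and all those of Scn1a, Hapln4, Sv2a and Hmgcs1 below 0, while the probe set median of Ndufb11 lies on the other side of 0 from its gene-level value.

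The brightest genes differed between the arrays. At 1 week the 10 highest signals belonged to Apoe, Mt1, Ctsd, Fth1, Ctsb, Actb, Gpnmb, Psap, Mt2 and Apod. In sham they belonged to Snap25, Mt1, Fth1, Vsnl1, Sparcl1, Scd2, Tubb4a, Ckb, Mbp and Cd81. Only the metallothionein Mt1 and the ferritin heavy chain Fth1 stand in both sets, with 12.44 at 1 week and 12.24 in sham (log2 difference 0.20) for Mt1 and 12.27 at 1 week and 12.17 in sham (log2 difference 0.10) for Fth1. Snap25, a membrane fusion protein of the synapse, led the sham array and had a log2 signal of 10.86 at 1 week and 12.35 in sham (log2 difference -1.49). Apoe, the lipid carrier made by astrocytes and macrophages, led the 1 week array and had a log2 signal of 12.58 at 1 week and 11.38 in sham (log2 difference 1.19).

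A gene counts as measured in the lists below if any of the 5 arrays reached the filter level, so genes dim in sham enter through the injured arrays where they are high, and the counts and medians are descriptions. Over all genes 11.3% were higher and 13.9% lower, and every list count below is to be read beside these shares. Of 15 measured macrophage markers 14 were higher, with a median log2 difference of 5.31, against -0.06 over all genes. Of these 14, 6 lay below the filter level in sham, and over the genes with both signals at that level the median was 4.70. The exception was Cd163, the haemoglobin scavenger receptor, with a log2 signal of 4.07 at 1 week and 3.65 in sham (log2 difference 0.42, rough), with probe sets at 1.15 ± 0.77 (median ± SD over 8 probe sets). Arg1, arginase-1, had a log2 signal of 8.32 at 1 week and 3.84 in sham (log2 difference 4.48), and Mrc1, the mannose receptor, had a log2 signal of 7.74 at 1 week and 3.99 in sham (log2 difference 3.74). Markers of resident microglia were mixed: 7 of 12 were higher and 2 lower. P2ry12, the ADP receptor of resting microglia, had a log2 signal of 7.36 at 1 week and 7.31 in sham (log2 difference 0.05), with probe sets at 0.69 ± 0.95 (median ± SD over 6 probe sets). Sall1, a transcription factor that keeps microglial identity, had a log2 signal of 5.38 at 1 week and 6.45 in sham (log2 difference -1.07). Olfml3, another microglial gene, had a log2 signal of 10.26 at 1 week and 7.16 in sham (log2 difference 3.10), so members of the microglial list differed in both directions.

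Every measured member of the Fc receptor group was higher, 15 of 15, with a median of 3.33. Of these 15, 7 lay below the filter level in sham. These receptors bind antibody-coated targets and signal through immunoreceptor adaptors. The adaptor Tyrobp had a log2 signal of 10.28 at 1 week and 5.63 in sham (log2 difference 4.65). Its partner Trem2, a lipid-sensing receptor, had a log2 signal of 9.32 at 1 week and 5.19 in sham (log2 difference 4.13). The common Fc gamma chain Fcer1g had a log2 signal of 11.74 at 1 week and 7.88 in sham (log2 difference 3.86). Downstream, the lipid phosphatase Inpp5d had a log2 signal of 8.04 at 1 week and 4.71 in sham (log2 difference 3.33) and the kinase Syk had a log2 signal of 6.50 at 1 week and 3.75 in sham (log2 difference 2.75, rough). Receptors, adaptors and the kinase were thus all higher. The phagocyte oxidase, which makes superoxide, had 7 of 8 members higher: its membrane subunit Cyba had a log2 signal of 9.43 at 1 week and 5.90 in sham (log2 difference 3.52) and the cytosolic subunit Ncf1 had a log2 signal of 8.66 at 1 week and 5.17 in sham (log2 difference 3.49). Mpo, the peroxidase of neutrophil granules counted with this group, had a log2 signal of 4.25 at 1 week and 3.92 in sham (log2 difference 0.34).

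Toll-like receptors sense microbial and endogenous ligands, and 12 of 15 of their group were higher, with a median of 2.73. Of these 12, 4 lay below the filter level in sham. Among endosomal receptors for RNA, Tlr7 had a log2 signal of 8.98 at 1 week and 3.84 in sham (log2 difference 5.14) and Tlr13 had a log2 signal of 9.25 at 1 week and 4.16 in sham (log2 difference 5.09). Tlr3, another RNA receptor, had 7.45 at 1 week and 7.50 in sham (log2 difference -0.05), and Tlr9, which binds DNA, had 5.38 at 1 week and 5.06 in sham (log2 difference 0.32). C-type lectins, which bind sugars, had 11 of 13 measured members higher, and 8 of these 11 lay below the filter level in sham. Of the inflammasome group 7 of 10 were higher, 5 of these 7 from below the filter level in sham. Gsdmd, the pore-forming gasdermin D, had a log2 signal of 6.54 at 1 week and 3.87 in sham (log2 difference 2.68). Nlrp3, a sensor that nucleates the inflammasome, had a log2 signal of 3.95 at 1 week and 3.55 in sham (log2 difference 0.40, rough), with probe sets at 1.38 ± 0.88 (median ± SD over 8 probe sets).

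Promoter sequences from RefSeq (GRCm38.p6, 250 bases before to 50 after each start) were matched for 9059 of the compared genes, and 10 motifs were searched on both strands. The core of the site bound by PU.1, the myeloid factor encoded by Spi1, was searched as GAGGAAG. It was present in 11 of 14 promoters of the Fc receptor group, in 23.4% of the higher genes, in 16.8% of the lower genes and in 16.4% of all compared genes. Spi1 itself had a log2 signal of 8.87 at 1 week and 5.08 in sham (log2 difference 3.79). The 3 stretches shown are those of the largest differences among 9 candidates of the group. Candidates were at least 2-fold higher and had a match before the start. Here and for the stretches below, genes of a single chromosome were left out of the choice. Capitals mark the motif, here on the opposite strand as CTTCCTC.
Clec5a, chr6:40585849-40585908, minus strand: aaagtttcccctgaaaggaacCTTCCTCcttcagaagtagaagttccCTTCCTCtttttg
Fcgr4, chr1:171018856-171018915, plus strand: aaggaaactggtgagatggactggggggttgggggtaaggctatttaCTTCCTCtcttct
Fcgr3, chr1:171059398-171059457, minus strand: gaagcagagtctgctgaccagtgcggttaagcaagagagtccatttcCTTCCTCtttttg
In Clec5a, which pairs with the Tyrobp family of adaptors, the 2 matches begin 82 and 56 bases before the start, and its signal was a log2 signal of 8.59 at 1 week and 2.92 in sham (log2 difference 5.67, rough). In Fcgr4 and Fcgr3 the match begins 23 and 16 bases before the start. Fcgr4 had a log2 signal of 8.42 at 1 week and 2.84 in sham (log2 difference 5.58, rough) and Fcgr3 had a log2 signal of 9.11 at 1 week and 4.92 in sham (log2 difference 4.19). A match in these letters is a description of the sequence and not a binding site.

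Lysosomal genes, which carry out the digestion of engulfed material, were higher in part. Of 25 measured hydrolases and membrane proteins 16 were higher and none was at least 2-fold lower. Gusb, beta-glucuronidase, had a log2 signal of 9.34 at 1 week and 5.25 in sham (log2 difference 4.09), and Grn, progranulin, had a log2 signal of 10.99 at 1 week and 7.41 in sham (log2 difference 3.57). Lipa, the acid lipase that frees cholesterol from lipoproteins, had a log2 signal of 10.66 at 1 week and 7.63 in sham (log2 difference 3.03). Smpd1, acid sphingomyelinase, had a log2 signal of 7.62 at 1 week and 8.23 in sham (log2 difference -0.60), and Gaa, acid alpha-glucosidase, had a log2 signal of 8.20 at 1 week and 8.86 in sham (log2 difference -0.66), both under 2-fold. Cathepsins, the lysosomal proteases, had 10 of 12 higher, with a median of 2.85, and of 1.62 with no filter. Ctsd was the brightest with a log2 signal of 12.41 at 1 week and 10.01 in sham (log2 difference 2.40), and Ctsc, dipeptidyl peptidase 1, had the largest difference with a log2 signal of 9.15 at 1 week and 4.79 in sham (log2 difference 4.36). Ctsf had a log2 signal of 6.45 at 1 week and 6.97 in sham (log2 difference -0.53).

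The E-box of lysosomal gene promoters, TCACGTGAC, was found in 2 of 9 cathepsin promoters, in 1.68% of all compared genes, in 1.51% of higher and 0.563% of lower genes. It was found in 2 of 22 promoters of hydrolases and membrane proteins and in 1 of 12 of the proton pump. Both cathepsin matches lie before the start and are shown with the motif in capitals.
Ctsd, chr7:142387912-142387971, minus strand: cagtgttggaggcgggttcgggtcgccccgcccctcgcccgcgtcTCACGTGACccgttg
Ctsa, chr2:164833713-164833772, plus strand: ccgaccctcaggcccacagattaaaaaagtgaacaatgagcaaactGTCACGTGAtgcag
Ctsa, the protective protein of lysosomal sialidase, had a log2 signal of 11.07 at 1 week and 9.31 in sham (log2 difference 1.76). The motif begins 99 bases before the start in Ctsd, on the gene's strand, and 14 bases before it in Ctsa, on the opposite strand.

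In the proton pump that acidifies the lysosome, the forms Atp6v0e and Atp6v0e2 of the e subunit differed in direction. Of 17 measured subunits 2 were higher and 2 lower, 11.8% each, near the 11.3% and 13.9% of all genes. The median was -0.05. Atp6v0d1, the usual form of the d subunit, had a log2 signal of 9.49 at 1 week and 9.32 in sham (log2 difference 0.18), beside 7.78 (rough) for Atp6v0d2. Atp6v0e, the widespread form of the e subunit, had a log2 signal of 9.08 at 1 week and 7.03 in sham (log2 difference 2.06), whereas Atp6v0e2, its form in the brain, had a log2 signal of 7.83 at 1 week and 9.20 in sham (log2 difference -1.37). Atp6v1g2, the neuronal form of the G subunit, had a log2 signal of 7.67 at 1 week and 10.04 in sham (log2 difference -2.37). The catalytic subunit Atp6v1a had a log2 signal of 9.50 at 1 week and 9.56 in sham (log2 difference -0.05).

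Of 15 genes of lipid uptake, storage and efflux 11 were higher, 4 of these from below the filter level in sham, and Fabp3, a fatty acid carrier, had the lowest difference at -0.91. Plin2, the coat protein of lipid droplets, had a log2 signal of 10.88 at 1 week and 6.27 in sham (log2 difference 4.61). Abca1, the cholesterol exporter, had a log2 signal of 10.20 at 1 week and 5.95 in sham (log2 difference 4.25), and Lpl, lipoprotein lipase, had a log2 signal of 8.77 at 1 week and 4.81 in sham (log2 difference 3.96). Pltp, phospholipid transfer protein, had the smallest SD of all higher genes with at least 10 probe sets, at 1.07 ± 0.16 (median ± SD over 15 probe sets). In contrast, 13 of 14 measured enzymes of cholesterol synthesis were lower, with a median of -1.99, beside a share of 13.9% over all genes. Sqle, squalene epoxidase, had a log2 signal of 5.72 at 1 week and 8.61 in sham (log2 difference -2.89). Cyp51, lanosterol demethylase, had a log2 signal of 6.75 at 1 week and 9.58 in sham (log2 difference -2.83), and Hmgcs1, an early enzyme of the pathway, had a log2 signal of 8.02 at 1 week and 10.51 in sham (log2 difference -2.50). The remaining member, Ebp, had a log2 signal of 7.34 at 1 week and 8.31 in sham (log2 difference -0.97). Of 10 genes of sterol sensing and uptake, 5 were lower and 2 higher. Insig1, which holds the pathway's transcription factor in check, had a log2 signal of 7.05 at 1 week and 9.51 in sham (log2 difference -2.46), and Srebf2, that factor, had a log2 signal of 7.75 at 1 week and 9.31 in sham (log2 difference -1.56). Mylip, the ubiquitin ligase that removes the LDL receptor and is a target of the sterol receptor LXR, went the other way with a log2 signal of 8.04 at 1 week and 5.71 in sham (log2 difference 2.33). Srebf1 had a log2 signal of 6.70 at 1 week and 6.4 in sham (log2 difference 0.30).

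The sterol regulatory element, searched as TCACNCCAC, was found in 1 of 12 promoters of the synthesis group in 2.02% of higher, 1.85% of lower and 1.5% of all compared genes. Hmgcs1 is that gene and is shown for this reason. The CCAAT box was found in 12 of these 12 promoters, against 42.7% of all compared genes.
Hmgcs1, chr13:119690169-119690228, plus strand: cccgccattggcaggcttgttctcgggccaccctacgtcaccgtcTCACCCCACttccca
The element, in capitals, begins 137 bases before the start, on the gene's strand.

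Fatty acid and sphingolipid synthesis had 8 of 20 members lower and none higher. Fa2h, which hydroxylates the fatty acids of myelin, had a log2 signal of 7.72 at 1 week and 10.46 in sham (log2 difference -2.74). Elovl6, a fatty acid elongase, had a log2 signal of 6.39 at 1 week and 8.96 in sham (log2 difference -2.57). Among myelin genes 13 of 17 oligodendrocyte genes were lower, with a median of -1.48. Mbp, myelin basic protein, was bright on both arrays with a log2 signal of 11.26 at 1 week and 11.79 in sham (log2 difference -0.53). Mog, a surface protein of myelin, had a log2 signal of 8.84 at 1 week and 10.67 in sham (log2 difference -1.84), and Gpr37, a receptor of oligodendrocytes, had a log2 signal of 7.27 at 1 week and 9.43 in sham (log2 difference -2.16). Of 12 precursor markers 3 were higher and 1 lower. Pdgfra had a log2 signal of 8.14 at 1 week and 6.86 in sham (log2 difference 1.28) and Cspg4, which encodes NG2, had a log2 signal of 6.10 at 1 week and 5.36 in sham (log2 difference 0.74). Fibroblasts and pericytes also express these 2 genes. Olig1 and Olig2, the lineage factors, had log2 differences of -0.80 and -0.78.

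Complement, the plasma cascade that tags debris, had 5 of 12 measured members higher, and 26 were listed. The subunits of C1q had large differences, with C1qa at 10.85 at 1 week and 6.77 in sham (log2 difference 4.08) and C1qc at 10.36 at 1 week and 6.0 in sham (log2 difference 4.36). Serping1, the C1 inhibitor, had a log2 signal of 9.71 at 1 week and 6.05 in sham (log2 difference 3.66). Among chemokine ligands 12 of 25 were higher and 3 lower, and 6 of these 12 lay below the filter level in sham. The list median was 0.96, and 0.21 over members with both signals at the filter level. Ccl3 had a log2 signal of 9.12 at 1 week and 4.50 in sham (log2 difference 4.62) and Ccl9 had a log2 signal of 9.0 at 1 week and 4.74 in sham (log2 difference 4.26), both ligands of monocytes. Cx3cl1, fractalkine, which neurons display to microglia, had a log2 signal of 6.52 at 1 week and 8.71 in sham (log2 difference -2.19). Cxcl12, a ligand of stem and immune cells, had a log2 signal of 5.82 at 1 week and 5.64 in sham (log2 difference 0.18). Of 34 interleukins, colony factors and their receptors 16 were higher, 5 of these from below the filter level in sham. The 3 largest differences were in Il7r, Csf2rb and Il1rn. Il1rn, the interleukin-1 receptor antagonist, had a log2 signal of 8.69 at 1 week and 4.77 in sham (log2 difference 3.92), whereas Il1b had a log2 signal of 4.12 at 1 week and 3.11 in sham (log2 difference 1.01, rough). Tnfrsf1b, a TNF receptor, had a log2 signal of 8.25 at 1 week and 4.61 in sham (log2 difference 3.63), and Tnf itself had a log2 signal of 3.83 at 1 week and 3.52 in sham (log2 difference 0.31, rough).

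Markers of neutrophils were higher in 7 of 12 cases, with S100a8, a calcium-binding alarmin, at 7.54 at 1 week and 4.97 in sham (log2 difference 2.56) and Mpo under 2-fold as above. Of the 7 higher markers, 3 lay below the filter level in sham. Lymphocyte markers were few and dim. Of 9 T and NK cell genes 2 were higher, Il7r with a log2 signal of 8.69 at 1 week and 3.72 in sham (log2 difference 4.97, rough) and Cd4 with a log2 signal of 4.63 at 1 week and 3.17 in sham (log2 difference 1.45, rough), and macrophages can express both. Cd3g, a chain of the T cell receptor complex, had a log2 signal of 2.61 at 1 week and 1.99 in sham (log2 difference 0.61, rough), with probe sets at 1.63 ± 0.70 (median ± SD over 2 probe sets) and Cd3e had a log2 signal of 3.19 at 1 week and 3.71 in sham (log2 difference -0.52, rough). In the B cell list Cd22 had a log2 signal of 6.14 at 1 week and 3.56 in sham (log2 difference 2.58, rough), Cd79b had a log2 signal of 4.31 at 1 week and 4.31 in sham (log2 difference 0.00) and Pax5 had a log2 signal of 3.92 at 1 week and 4.02 in sham (log2 difference -0.10). Antigen presentation by class II had 4 of 5 measured members higher, with H2-Aa at 7.90 at 1 week and 4.36 in sham (log2 difference 3.54) and the invariant chain Cd74 at 7.90 at 1 week and 4.46 in sham (log2 difference 3.44). The list held 12 genes, and the median of the measured members was 3.31. By probe set medians 5 of 10 class II genes were at least 2-fold higher and 1 lower, with a list median of 1.43. H2-Eb1 had 0.79 ± 0.60 over 7 probe sets and Ciita -0.19 ± 0.68 over 6 probe sets. In the proteasome 2 of 32 subunits were higher and 1 lower, and the higher ones were the inducible subunits Psmb8 with a log2 signal of 7.56 at 1 week and 4.36 in sham (log2 difference 3.20) and Psmb9 with a log2 signal of 6.38 at 1 week and 4.71 in sham (log2 difference 1.66). The other inducible subunit, Psmb10, had a log2 signal of 7.24 at 1 week and 7.18 in sham (log2 difference 0.06).

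Interferon-stimulated genes were higher in 14 of 17 cases, with a median of 1.49, and 5 of these 14 lay below the filter level in sham. Their promoter element, searched as GAAANNGAA, was found in 9 of 14 promoters of the group, in 8.36% of all compared genes, in 11.9% of higher and 7.56% of lower genes. The stretches of the 3 largest differences among 7 candidates are shown, with overlapping matches written as 1 run of capitals. Candidates were at least 2-fold higher, had a match before the start and did not lie on the chromosome left out of the choice.
Gbp2, chr3:142620560-142620619, plus strand: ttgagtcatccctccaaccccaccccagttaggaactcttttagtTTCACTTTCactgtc
Ifit1, chr19:34640760-34640819, plus strand: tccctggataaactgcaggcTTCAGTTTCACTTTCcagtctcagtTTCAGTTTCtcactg
Bst2, chr8:71537582-71537641, minus strand: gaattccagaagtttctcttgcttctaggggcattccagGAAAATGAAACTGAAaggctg
Gbp2, a GTPase that acts on intracellular pathogens, had a log2 signal of 6.48 at 1 week and 3.64 in sham (log2 difference 2.84, rough). Ifit1, which binds foreign RNA, had a log2 signal of 4.87 at 1 week and 2.87 in sham (log2 difference 1.99, rough), and Bst2, tetherin, had a log2 signal of 6.64 at 1 week and 4.80 in sham (log2 difference 1.85). The median was smaller than that of the Fc receptor group, 3.33. Irf7, the master factor of the response, had a log2 signal of 5.76 at 1 week and 4.56 in sham (log2 difference 1.20). Stat2, a constant component of the response, had a log2 signal of 5.78 at 1 week and 5.74 in sham (log2 difference 0.04).

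Myeloid and signalling factors were higher in 13 of 32 cases. Irf8, which with PU.1 sets monocyte fate, had a log2 signal of 7.71 at 1 week and 4.58 in sham (log2 difference 3.13), and Runx1 had a log2 signal of 7.30 at 1 week and 5.11 in sham (log2 difference 2.19). Tfeb, the factor known for the lysosomal gene set, had a log2 signal of 5.46 at 1 week and 5.49 in sham (log2 difference -0.04). Eicosanoid enzymes had 8 of 17 higher. Hpgds, the haematopoietic prostaglandin D synthase, had a log2 signal of 9.03 at 1 week and 4.92 in sham (log2 difference 4.11), while Ptgds, the synthase of meninges and oligodendrocytes, had a log2 signal of 9.23 at 1 week and 10.05 in sham (log2 difference -0.82). Alox5ap, which presents arachidonate for leukotriene synthesis, had a log2 signal of 8.55 at 1 week and 5.01 in sham (log2 difference 3.54). Receptors and enzymes for purines had 8 of 23 higher and 4 lower. P2ry6, the UDP receptor of phagocytes, had a log2 signal of 8.98 at 1 week and 5.54 in sham (log2 difference 3.44), P2rx4 had a log2 signal of 9.48 at 1 week and 6.78 in sham (log2 difference 2.69), and Panx2, a channel of neurons and glia, had a log2 signal of 5.42 at 1 week and 7.93 in sham (log2 difference -2.51).

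Many matrix genes were higher as well. Of 36 measured collagens 16 were higher and none lower, but the median was 0.57, since 20 collagens were under 2-fold. With the filter at the 60th percentile it was 2.21. Col1a1, the main fibrillar collagen, had a log2 signal of 10.99 at 1 week and 6.94 in sham (log2 difference 4.05), with probe sets at 4.16 ± 1.04 (median ± SD over 53 probe sets). Col3a1, its partner in young scar, had a log2 signal of 10.29 at 1 week and 5.71 in sham (log2 difference 4.57). Col12a1, which links fibrils, had a log2 signal of 9.38 at 1 week and 4.26 in sham (log2 difference 5.12). Of the basement membrane collagens, Col4a1 had a log2 signal of 8.21 at 1 week and 5.80 in sham (log2 difference 2.41) and Col4a5 had a log2 signal of 3.97 at 1 week and 3.66 in sham (log2 difference 0.31, rough). Laminins and nidogens, also of the basement membrane, had 6 of 8 higher, with Lama4 of vessels at 7.43 at 1 week and 4.81 in sham (log2 difference 2.62). Enzymes that modify and cross-link collagen had 10 of 16 higher, with Plod2, lysyl hydroxylase, at 8.13 at 1 week and 5.14 in sham (log2 difference 2.99) and the oxidase Loxl2 at 7.10 at 1 week and 4.40 in sham (log2 difference 2.70).

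Matricellular and fibril proteins had 22 of 28 higher and none lower, with a median of 2.09. Fn1, fibronectin, had a log2 signal of 10.68 at 1 week and 6.63 in sham (log2 difference 4.05). Tnc, tenascin-C of repair tissue, had a log2 signal of 8.56 at 1 week and 5.15 in sham (log2 difference 3.40), while Tnr, tenascin-R of neural tissue, had a log2 signal of 8.26 at 1 week and 8.20 in sham (log2 difference 0.06). Sparc had a log2 signal of 11.79 at 1 week and 11.52 in sham (log2 difference 0.26), and its relative Sparcl1, of astrocytes, had a log2 signal of 11.06 at 1 week and 11.98 in sham (log2 difference -0.92). Small leucine-rich proteoglycans had 8 of 11 higher, with decorin, Dcn, at 11.24 at 1 week and 7.64 in sham (log2 difference 3.60) and biglycan, Bgn, at 10.84 at 1 week and 7.75 in sham (log2 difference 3.09). Among chondroitin sulfate proteoglycans, which block axon growth in scars, Vcan alone was higher, with a log2 signal of 9.37 at 1 week and 6.64 in sham (log2 difference 2.73). Bcan had a log2 signal of 7.01 at 1 week and 8.35 in sham (log2 difference -1.34), Ncan had a log2 signal of 9.17 at 1 week and 8.66 in sham (log2 difference 0.51), and Acan had a log2 signal of 5.38 at 1 week and 5.58 in sham (log2 difference -0.20). The link protein Hapln2, of nodes of Ranvier, had a log2 signal of 6.4 at 1 week and 7.95 in sham (log2 difference -1.55).

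Proteases and their inhibitors were higher in 9 of 18 cases, 4 of these 9 from below the filter level in sham. Mmp14, a membrane-bound collagenase, had a log2 signal of 9.19 at 1 week and 6.06 in sham (log2 difference 3.13), Mmp13 had a log2 signal of 9.19 at 1 week and 3.17 in sham (log2 difference 6.02, rough), and Timp1, an inhibitor, had a log2 signal of 8.77 at 1 week and 3.59 in sham (log2 difference 5.18, rough). Mmp24, the form of neurons, had a log2 signal of 4.32 at 1 week and 5.79 in sham (log2 difference -1.47). Mmp9, often studied early after cord injury, had a log2 signal of 5.76 at 1 week and 5.62 in sham (log2 difference 0.14). Among ADAM proteases Adam8 of leukocytes had a log2 signal of 8.89 at 1 week and 4.12 in sham (log2 difference 4.76) and Adam23 of neurons had a log2 signal of 7.76 at 1 week and 10.06 in sham (log2 difference -2.30). Integrins, the receptors for matrix, were higher in 7 of 18 cases, led by the leukocyte beta chain Itgb2 with a log2 signal of 9.35 at 1 week and 4.78 in sham (log2 difference 4.57). The fibronectin receptor chain Itga5 had a log2 signal of 7.47 at 1 week and 4.70 in sham (log2 difference 2.78).

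Fibroblast markers were higher in 15 of 19 cases with a median of 2.78. Mesenchymal factors were higher in 7 of 19, with Osr1 at 7.10 at 1 week and 4.59 in sham (log2 difference 2.51), Prrx1 at 7.73 at 1 week and 5.26 in sham (log2 difference 2.47) and Snai2 at 7.37 at 1 week and 5.36 in sham (log2 difference 2.01). Slc22a8, a transporter of the meningeal barrier, was lower, with a log2 signal of 5.52 at 1 week and 7.06 in sham (log2 difference -1.54). Mural cell genes had 7 of 13 higher. They included the contractile genes Acta2 with a log2 signal of 9.89 at 1 week and 6.68 in sham (log2 difference 3.21) and Tagln with a log2 signal of 7.83 at 1 week and 4.39 in sham (log2 difference 3.45). The brain pericyte genes Kcnj8 and Abcc9 had log2 differences of -0.44 and -0.24. Of 20 endothelial genes 3 were higher and 3 lower, 15% each, near the 11.3% and 13.9% of all genes. Cdh5, VE-cadherin, had a log2 signal of 8.37 at 1 week and 6.32 in sham (log2 difference 2.05), Cldn5, a tight junction claudin, had a log2 signal of 5.54 at 1 week and 5.55 in sham (log2 difference -0.01), and Slco1a4, a transporter of the barrier, had a log2 signal of 5.37 at 1 week and 6.90 in sham (log2 difference -1.53).

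Insulin-like growth factors and their binding proteins had 8 of 11 higher. Igf1 had a log2 signal of 7.80 at 1 week and 4.96 in sham (log2 difference 2.84) and Igf2, which is imprinted and neighbours H19 in the genome, had a log2 signal of 9.63 at 1 week and 7.50 in sham (log2 difference 2.13). The receptor Igf1r had a log2 signal of 6.95 at 1 week and 7.29 in sham (log2 difference -0.34). In the TGF-beta family the ligand Tgfb1 had a log2 signal of 8.86 at 1 week and 5.38 in sham (log2 difference 3.48) and the receptor Tgfbr2 had a log2 signal of 8.17 at 1 week and 5.33 in sham (log2 difference 2.84), while the ligand Tgfb2 had a log2 signal of 6.06 at 1 week and 6.11 in sham (log2 difference -0.05). The effectors Smad2 and Smad3 had log2 differences of 0.12 and 0.27. Among Wnt genes, 2 of 39 were higher and 1 lower, shares below the 11.3% and 13.9% of all genes. In the vascular group Angpt2, which destabilises vessels, had a log2 signal of 7.24 at 1 week and 4.06 in sham (log2 difference 3.18) and Vegfa had a log2 signal of 6.77 at 1 week and 7.73 in sham (log2 difference -0.95). Of the fibroblast growth factors, Fgf9, of neurons and astrocytes, had a log2 signal of 4.51 at 1 week and 8.27 in sham (log2 difference -3.76), with 3 measured probe sets, and Fgf1, of neurons, had a log2 signal of 7.18 at 1 week and 9.31 in sham (log2 difference -2.13).

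Cell cycle genes were higher in 28 of 35 cases with a median of 2.07, and none was lower. Over members with both signals at the filter level the median was 1.33. Ccna2, a cyclin of S and G2 phase, had a log2 signal of 8.87 at 1 week and 4.48 in sham (log2 difference 4.39). Plk1, a mitotic kinase, had a log2 signal of 6.82 at 1 week and 3.98 in sham (log2 difference 2.84), and Top2a, which untangles chromosomes, had a log2 signal of 7.25 at 1 week and 3.26 in sham (log2 difference 3.99, rough). Of the 28 higher genes, 16 lay below the filter level in sham. DNA replication genes had 12 of 22 higher, with Mcm6 of the replicative helicase at 6.84 at 1 week and 4.21 in sham (log2 difference 2.63). Inhibitors of the cycle had 7 of 13 higher, with Cdkn1a, p21, at 7.68 at 1 week and 5.86 in sham (log2 difference 1.82). Of 26 kinesin genes 7 were higher, 6 of these from below the filter level in sham, and 10 were lower. The mitotic motors Kif22, Kif11 and Kif20a had log2 differences of 1.12, 2.44 (rough) and 2.13 (rough), whereas the axonal motors Kif5a, Kif5c and Kif1a had -2.54, -2.37 and -1.76.

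Promoters of cell cycle genes often hold a CCAAT box and the cell cycle genes homology region, TTTGAA. The region was found in 17 of 28 promoters of the group, against 19.4% of higher, 13% of lower and 14.4% of all compared genes. CCAAT was found in 21 of 28, against 41.2% of higher, 42.5% of lower and 42.7% of all compared genes. The E2F motif TTTGGCGC was found in 5 of 19 promoters of the replication group in 1.21% of higher, 0.402% of lower and 1.09% of all compared genes. The first 3 stretches shown are those of the largest differences among 6 candidates of the group. Candidates were at least 2-fold higher and held both of the first 2 motifs in the 60 bases ending at or near the last match before the start. The stretches of Mcm6 and Mcm5 hold the E2F motif.
Top2a, chr11:99024201-99024260, minus strand: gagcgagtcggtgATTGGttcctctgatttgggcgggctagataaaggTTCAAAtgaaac
Prc1, chr7:80294398-80294457, plus strand: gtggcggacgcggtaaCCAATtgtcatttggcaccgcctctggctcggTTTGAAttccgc
Mki67, chr7:135716466-135716525, minus strand: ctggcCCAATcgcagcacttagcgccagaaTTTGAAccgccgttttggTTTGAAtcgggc
Mcm6, chr1:128359739-128359798, minus strand: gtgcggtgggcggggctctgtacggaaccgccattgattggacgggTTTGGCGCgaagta
Mcm5, chr8:75109314-75109373, plus strand: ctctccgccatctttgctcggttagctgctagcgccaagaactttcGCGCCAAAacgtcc
Capitals mark the motifs, which in Top2a lie on the opposite strand as ATTGG and TTCAAA, and in Mcm5 as GCGCCAAA. Prc1, a cross-linker of the mitotic spindle, had a log2 signal of 6.92 at 1 week and 3.12 in sham (log2 difference 3.80, rough). Mki67, the Ki-67 antigen of dividing cells, had a log2 signal of 5.61 at 1 week and 3.16 in sham (log2 difference 2.46, rough), with probe sets at 4.47 ± 0.96 (median ± SD over 4 probe sets), and Mcm5 of the helicase had a log2 signal of 5.66 at 1 week and 4.23 in sham (log2 difference 1.43).

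Neuronal markers were lower without exception, 17 of 17 measured, with a median of -2.29, beside 13.9% of all genes. The smallest difference was in Thy1, with a log2 signal of 8.97 at 1 week and 10.25 in sham (log2 difference -1.29), and the largest in Syt1, the calcium sensor of release, with a log2 signal of 5.89 at 1 week and 9.07 in sham (log2 difference -3.18). Neurofilaments of large axons were in between, with Nefl at 9.25 at 1 week and 11.67 in sham (log2 difference -2.42) and Nefh at 7.75 at 1 week and 10.07 in sham (log2 difference -2.32). Motor neuron genes had 7 of 9 lower. Slc5a7, the choline transporter, had a log2 signal of 4.69 at 1 week and 7.44 in sham (log2 difference -2.75), and Chodl, of fast motor neurons, had a log2 signal of 3.85 at 1 week and 7.04 in sham (log2 difference -3.19). All 17 stayed above the filter level at 1 week, the lowest of them at a log2 signal of 5.08.

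Of genes of the synaptic vesicle and its release, with a median of -2.34, 28 of 31 were lower. Slc17a6, the vesicular glutamate transporter of cord neurons, had a log2 signal of 5.71 at 1 week and 8.71 in sham (log2 difference -3.00). Sv2a, a vesicle glycoprotein, had a log2 signal of 6.99 at 1 week and 9.05 in sham (log2 difference -2.07), with 1 of the narrowest probe set spreads among lower genes, -2.05 ± 0.19 (median ± SD over 13 probe sets). Stx1a, the syntaxin partner of Snap25, had a log2 signal of 5.0 at 1 week and 5.37 in sham (log2 difference -0.38), with probe sets at -1.28 ± 0.75 (median ± SD over 9 probe sets), and Slc17a7 had a log2 signal of 2.91 at 1 week and 3.89 in sham (log2 difference -0.98, rough), with probe sets at -1.72 ± 1.45 (median ± SD over 5 probe sets). Postsynaptic scaffolds were lower in 17 of 21 cases, with Dlg4, PSD-95, at 6.92 at 1 week and 8.73 in sham (log2 difference -1.82). Homer1 had a log2 signal of 4.96 at 1 week and 5.08 in sham (log2 difference -0.12), with probe sets at -0.75 ± 0.44 (median ± SD over 11 probe sets). The letters TTCAGCACC, from the site of the neuronal repressor REST, were found in 2 of 25 promoters of the release group, in 0.965% of lower, 0.202% of higher and 0.475% of all compared genes. Syn1, synapsin-1, was the only candidate, at least 2-fold lower with a match before the start. It had a log2 signal of 6.92 at 1 week and 9.27 in sham (log2 difference -2.36).
Syn1, chrX:20921109-20921168, minus strand: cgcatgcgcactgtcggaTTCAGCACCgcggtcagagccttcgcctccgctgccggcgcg
The match in capitals begins 232 bases before the start.

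Glycine receptors and genes that make, load or take up inhibitory transmitter were lower in 11 of 11 cases. Of 9 measured GABA receptor genes 7 were lower, and Gabra4 and Gabrr2 had log2 differences of -0.87 and 0.03 (rough). Glra1, the adult glycine receptor, had a log2 signal of 6.90 at 1 week and 10.10 in sham (log2 difference -3.20). Slc6a5, the glycine transporter of inhibitory terminals, had a log2 signal of 6.13 at 1 week and 9.16 in sham (log2 difference -3.02), and Gad1, a GABA-making enzyme, had a log2 signal of 6.55 at 1 week and 8.66 in sham (log2 difference -2.11). The receptor anchor Gphn had a log2 signal of 6.42 at 1 week and 7.86 in sham (log2 difference -1.43). Glutamate receptors of the ionotropic class had 11 of 14 lower, with Gria2 at 6.05 at 1 week and 8.27 in sham (log2 difference -2.22) and Grin2b at 4.48 at 1 week and 7.03 in sham (log2 difference -2.55). Grin2d, an NMDA receptor subunit, had a log2 signal of 5.11 at 1 week and 5.78 in sham (log2 difference -0.68).

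Of 55 measured potassium channel genes 31 were lower and 3 higher. Kcnc1, the channel of fast-firing neurons, had a log2 signal of 4.60 at 1 week and 7.76 in sham (log2 difference -3.16), with probe sets at -2.18 ± 1.17 (median ± SD over 7 probe sets). Those higher included Kcnn4, a calcium-gated channel of immune cells, with a log2 signal of 6.27 at 1 week and 5.07 in sham (log2 difference 1.20), and Kcnj2 with a log2 signal of 6.59 at 1 week and 5.19 in sham (log2 difference 1.41). Kcnj10, the glial channel that clears potassium, had a log2 signal of 9.19 at 1 week and 10.19 in sham (log2 difference -0.99). Of 7 sodium channel genes 5 were lower and 2 higher. Scn8a, of nodes of Ranvier, had a log2 signal of 5.17 at 1 week and 8.42 in sham (log2 difference -3.25), and Scn2b had a log2 signal of 5.39 at 1 week and 8.26 in sham (log2 difference -2.86), whereas Scn7a, of glia and Schwann cells, had a log2 signal of 5.09 at 1 week and 3.43 in sham (log2 difference 1.66, rough). Calcium channels were lower in 11 of 18 cases, with Cacna2d2 at 4.71 at 1 week and 7.51 in sham (log2 difference -2.80). Clic1, a chloride channel protein of macrophages, had a log2 signal of 8.92 at 1 week and 5.44 in sham (log2 difference 3.49).

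Receptors for acetylcholine and the monoamines had 12 of 25 lower, Htr2c among them with a log2 signal of 5.47 at 1 week and 8.57 in sham (log2 difference -3.10). Htr2b, a serotonin receptor, was the only member higher, with a log2 signal of 7.96 at 1 week and 2.57 in sham (log2 difference 5.39, rough). Of 22 neuropeptide precursors 10 were lower, Sst with a log2 signal of 7.0 at 1 week and 9.80 in sham (log2 difference -2.79) and Tac1 with a log2 signal of 5.30 at 1 week and 6.75 in sham (log2 difference -1.46). Gal, galanin, and Npy, both known to be induced in injured neurons, were higher, with 6.33 at 1 week and 4.03 in sham (log2 difference 2.30) for Gal and 8.05 at 1 week and 6.71 in sham (log2 difference 1.34) for Npy. Of the genes linked to regeneration 9 of 20 were higher. Sprr1a had a log2 signal of 9.80 at 1 week and 3.84 in sham (log2 difference 5.95), with probe sets at 2.55 ± 2.85 (median ± SD over 3 probe sets) and Atf3 had a log2 signal of 8.30 at 1 week and 3.34 in sham (log2 difference 4.96, rough), while Gap43, of growth cones, had a log2 signal of 8.05 at 1 week and 8.32 in sham (log2 difference -0.27) and Sox11 had a log2 signal of 4.26 at 1 week and 4.49 in sham (log2 difference -0.23).

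Of the semaphorins, plexins and neuropilins 5 of 27 were higher and 6 lower, 18.5% and 22.2%, beside 11.3% and 13.9% of all genes. The receptors Plxnd1 and Nrp1 had 7.93 at 1 week and 5.52 in sham (log2 difference 2.41) for Plxnd1 and 8.80 at 1 week and 6.50 in sham (log2 difference 2.30) for Nrp1. Sema3a, the repellent ligand of Nrp1, had a log2 signal of 5.88 at 1 week and 6.31 in sham (log2 difference -0.43). Netrins, slits and their receptors had 9 of 21 lower and none higher, with Lingo1, a part of the myelin inhibitor receptor, at 5.26 at 1 week and 7.50 in sham (log2 difference -2.23). Rtn4, which encodes the inhibitor Nogo, had a log2 signal of 8.82 at 1 week and 9.04 in sham (log2 difference -0.21). Epha3 had a log2 signal of 6.79 at 1 week and 3.84 in sham (log2 difference 2.95) and Epha4, a receptor on motor axons and astrocytes, had a log2 signal of 5.14 at 1 week and 6.77 in sham (log2 difference -1.63).

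Spinal neuron factors were lower in 13 of 36 cases, Esrrg with a log2 signal of 4.24 at 1 week and 7.11 in sham (log2 difference -2.87) and Ebf3 with a log2 signal of 5.6 at 1 week and 7.66 in sham (log2 difference -2.06). Of the Hox genes 8 of 30 were lower and none higher, Hoxb8 with a log2 signal of 6.12 at 1 week and 8.33 in sham (log2 difference -2.21). Of 15 astrocyte genes 5 were lower and none higher. Slc7a10, a transporter of serine and glycine, had a log2 signal of 5.72 at 1 week and 8.57 in sham (log2 difference -2.85), and Slc6a11, a GABA transporter, had a log2 signal of 7.66 at 1 week and 10.26 in sham (log2 difference -2.60). Aqp4, the water channel of endfeet, had a log2 signal of 10.32 at 1 week and 10.26 in sham (log2 difference 0.06) and Gfap, the astrocytic filament, had a log2 signal of 11.53 at 1 week and 10.93 in sham (log2 difference 0.60). Vim, vimentin, which many cell types make, had a log2 signal of 11.56 at 1 week and 7.94 in sham (log2 difference 3.62). In the reactive set 16 of 23 were higher, 5 of these 16 from below the filter level in sham. Among the higher were Osmr with a log2 signal of 7.88 at 1 week and 4.61 in sham (log2 difference 3.27) and Lcn2 with a log2 signal of 8.22 at 1 week and 5.48 in sham (log2 difference 2.74). Several of that set are also made by fibroblasts and macrophages. Serpina3n had a log2 signal of 11.07 at 1 week and 9.33 in sham (log2 difference 1.74).

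**Figure D4:**
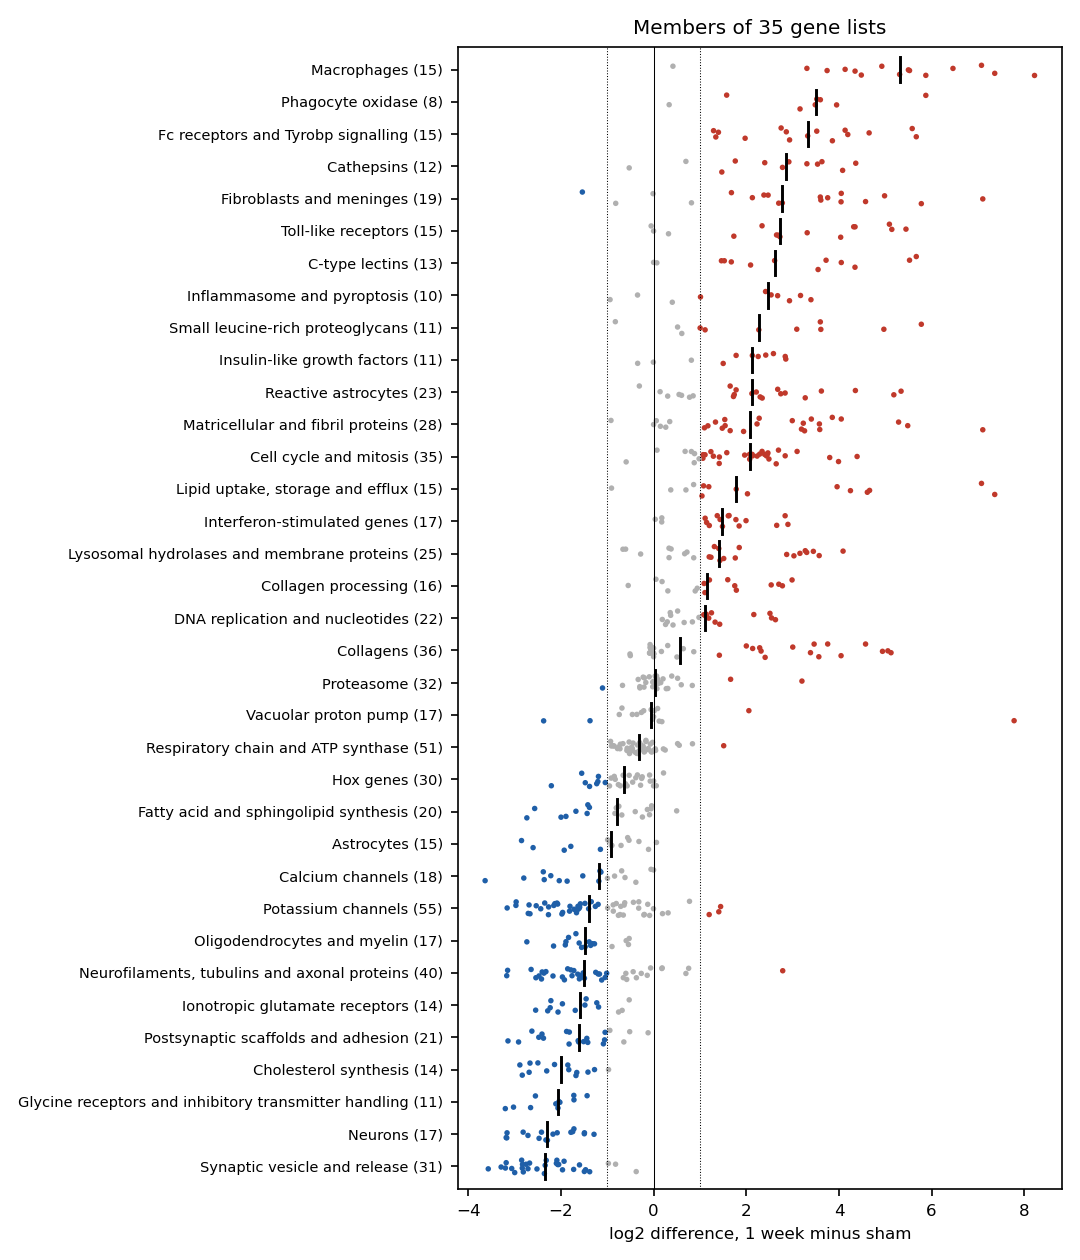
Log2 differences (1 week minus sham) of the measured members of 35 gene lists, with the number measured in brackets and the list median as a black bar. Red points are at least 2-fold higher, blue points at least 2-fold lower and dotted lines mark 2-fold. Among the lists drawn, macrophage genes have the highest median (5.31) and genes of vesicle release the lowest (-2.34), while the proteasome and the respiratory chain gather near 0.

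In the respiratory chain 50 of 51 measured genes were under 2-fold, with a median of -0.31. The 51st, Ndufb11, had a log2 signal of 7.07 at 1 week and 5.55 in sham (log2 difference 1.51), but its probe sets gave -0.32 ± 0.79 (median ± SD over 6 probe sets). Of 18 glycolysis and lactate genes 2 were higher and 4 lower, 11.1% and 22.2%, beside 11.3% and 13.9% of all genes. Hk2 had a log2 signal of 6.18 at 1 week and 4.08 in sham (log2 difference 2.10), the lactate exporter Slc16a3 had a log2 signal of 6.56 at 1 week and 4.14 in sham (log2 difference 2.42), and the neuronal enolase Eno2 had a log2 signal of 7.76 at 1 week and 10.23 in sham (log2 difference -2.47). The muscle and platelet forms of phosphofructokinase, Pfkm and Pfkp, had log2 differences of -1.37 and -1.38, and the liver form Pfkl had 0.08. Of 20 genes of the unfolded protein response 5 were higher, with Hspa5, BiP, at 10.21 at 1 week and 9.17 in sham (log2 difference 1.04), while Ddit3, a marker of unresolved stress, had a log2 signal of 6.29 at 1 week and 6.36 in sham (log2 difference -0.06). Of 16 antioxidant genes 3 were higher and 2 lower, 18.8% and 12.5%, beside the same shares of all genes. Among them, Gpx1 was at 10.54 at 1 week and 8.71 in sham (log2 difference 1.83) and Sod2 at 7.84 at 1 week and 9.12 in sham (log2 difference -1.28). The iron exporter Slc40a1 had a log2 signal of 6.32 at 1 week and 5.35 in sham (log2 difference 0.97), and Slc11a1, the iron transporter of phagosomes, had a log2 signal of 9.15 at 1 week and 4.81 in sham (log2 difference 4.34).

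As a measure of how dim genes behave, 76 of 825 olfactory and vomeronasal receptor genes on the array passed the filter, and 20 of these, 26.3%, differed by at least 2-fold, against 25.2% of all genes. Only 2 of the 20 had both signals at or above 3.79, and none had 4 probe sets that passed the exon-level filter. Their highest log2 signal on either array was 5.88, and their largest difference was 2.32. Of 66 long noncoding RNAs by RefSeq biotype, 2 were higher and 8 lower, beside 11.3% higher and 13.9% lower over all genes. Snhg11, of neurons, had a log2 signal of 5.55 at 1 week and 7.84 in sham (log2 difference -2.29), and Cdr1os had a log2 signal of 4.77 at 1 week and 7.24 in sham (log2 difference -2.47).

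Some genes known for this setting have no single-gene cluster or lie under the filter at the gene level, yet have at least 4 probe sets at the exon level. There were 1318 such genes, of which 173 were at least 2-fold higher by the probe set median, 13.1%, and 111 lower, 8.42%. Lyz2, lysozyme of macrophages, had a median log2 difference of 6.90 ± 0.88 over 6 probe sets, and its near-identical copy Lyz1 had 6.13 ± 1.30 over 4 probe sets, so the pair may share signal. Spp1, osteopontin, had 4.06 ± 1.32 over 12 probe sets. Itgax, CD11c, had 5.22 ± 1.37 over 32 probe sets. Fbn1, the main fibrillin, had 4.02 ± 1.47 over 76 probe sets. These 5 genes are known from phagocytes and matrix. C3, the central complement component, had 0.23 ± 0.44 over 43 probe sets. Idi1 and Fdps, of cholesterol synthesis, had -3.71 ± 0.45 over 6 probe sets and -2.56 ± 1.05 over 10 probe sets. Grin1, the obligatory NMDA receptor subunit, had -3.36 ± 0.75 over 22 probe sets. Slc1a2, the main astrocytic glutamate transporter, had -1.34 ± 0.38 over 15 probe sets. Gapdh, a common loading control, had -0.07 ± 0.21 over 15 probe sets. Of 34 ribosomal protein genes measured in this way, all had a median above 0, from 0.22 to 1.63, and 16 reached 2-fold. At the gene level 15 others were measured, 4 of them higher and 5 below 0, from -0.97 (rough) for Rps24 to 2.42 for Rps27l, with a median of 0.46. These medians are not adjusted for the exon-level arrays, whose overall medians differed by -0.10 between 1 week and sham.

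On the 5 arrays, 991 of the 1272 higher genes had their highest signal at 1 week, and 1441 of the 1571 lower genes had their lowest signal there, among genes chosen for their difference on that array. Over all genes compared, 23.5% had their highest and 31.0% their lowest signal at 1 week. At 3 weeks after injury 750 of the higher and 371 of the lower genes still differed from sham by at least 2-fold, with the same sham array in both comparisons. The median log2 signal of the array was 4.76 at 3 weeks and 4.60 in sham, and these counts are not adjusted for that. The counts of higher and lower genes at 3 weeks are therefore not set against each other. In sham, at 1 day, 3 days, 1 week and 3 weeks, Postn had log2 signals of 3.58, 4.54, 6.09, 10.68 and 9.14. Gpnmb had 3.78, 6.25, 10.08, 12 and 10.66 in the same order. Ccna2 had 4.48, 4.43, 8.21, 8.87 and 5.85, and its 3 week signal was closer to sham than to 1 week. Scn1a had 9.11, 7.95, 6.53, 5.10 and 7.82, and Sqle had 8.61, 8.06, 7.24, 5.72 and 6.67. Apoe had 11.38, 11.04, 11.63, 12.58 and 12.49, nearly as high at 3 weeks as at 1 week. Gfap had 10.93, 11.24, 11.45, 11.53 and 11.81, highest at 3 weeks.

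**Figure D5:**
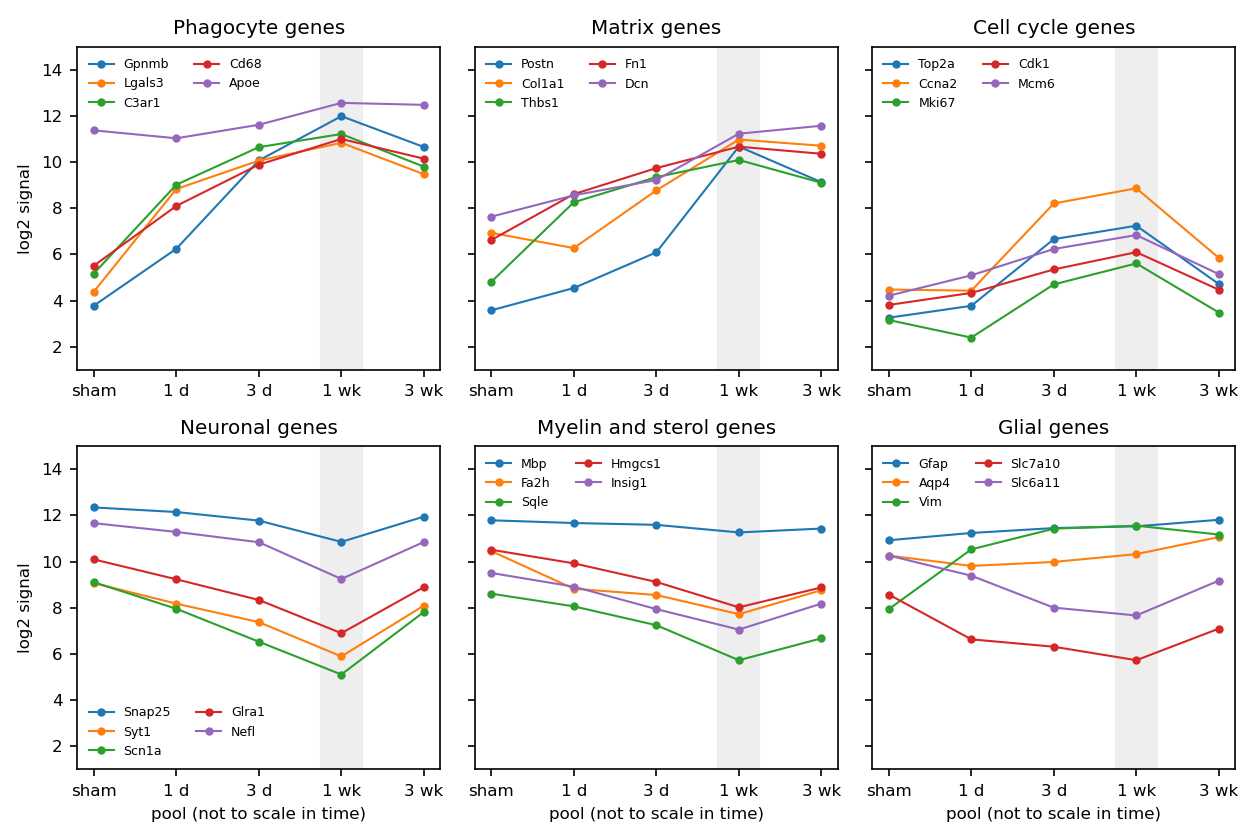
Log2 signals of 30 genes in 6 groups on the 5 gene-level arrays, from sham through 1 day, 3 days and 1 week to 3 weeks after injury, 1 pool each, with the 1 week pool shaded. The 5 cell cycle genes have their highest and the 5 neuronal genes their lowest signals at 1 week, while Gfap, Aqp4 and Dcn are highest at 3 weeks.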

How the data were processed

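Total RNA of thoracic cord was measured on Affymetrix arrays, in 1 pool of 3 mice per group, as 1 gene-level and 1 exon-level table for 5 groups. The deposited log2 signals were used as given. Per the submitters' processing notes, the tools and builds named are GCOS and mm8. Background correction, normalization and summary are not stated there. The log base is not stated per the labels, and base 2 was chosen because the highest value, 13.15, would equal an intensity of 514577 in base e, above the 16-bit scanner maximum of 65535. All value columns matched a sample, and 0 were left unused. Every comparison rests on 1 array per group, so no replicate spread, interval or p-value exists for any gene, and precision is limited by the number of arrays.

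Of 23332 gene-level clusters, 14996 had 1 symbol, 1019 several and 7317 none. Of several clusters of a gene, the one with the highest mean over the 5 arrays was kept. Genes stayed in where 1 of the 5 arrays reached the 40th percentile of all values, 3.79 for genes and 4.85 for probe sets. Differences were 1 week minus sham, called at 2-fold. The exon-level spread is the SD over the probe sets of a gene, which share their RNA. The study's own selection by false discovery rate was not repeated. The calculation was tested on simulated data.

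Genes were named by rule: the 15 largest differences each way with both signals at the filter level and agreeing probe sets, the 6 largest each way with 1 dim signal, up to 3 each way per gene list plus 1 bright member near 0, the 4 with the smallest probe set SD each way, the 4 with opposing probe sets, the 10 brightest per array, and all members of small lists. A further 96 genes were chosen after their values were seen, as further members of the lists or for their promoters. The members and the lists were chosen with earlier results of these data known. The alternatives were no filter, a filter at the 60th percentile, both signals at the filter level, centring, quantile normalization, exon-level medians and the mean over clusters. Python 3.11.15 with pandas 2.3.3, numpy 2.4.6, scipy 1.17.1 and matplotlib 3.10.9 was used.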

Additional observations from a re-analysis of the deposited data

Results flagged for a closer look

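Clusters without a gene symbol take no part in the comparison of named genes, and they held differences of the same kind. Of 3273 such clusters past the filter, 355 were at least 2-fold higher at 1 week than in sham and 377 were at least 2-fold lower, 22.4% in all, against 25.2% of the named genes. Their largest log2 differences were 6.95 and -3.36. They are unnamed here.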

How the results depend on the processing

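The counts of genes at least 2-fold different stayed within 1.5 times of 1272 higher and 1571 lower under each of 7 other settings, with 1003 to 1886 higher and 1428 to 2248 lower. The share of such genes that were higher was 44.7% (exact Clopper-Pearson 95% interval over genes, 42.9% to 46.6%, counting error only). The interval treats genes as independent, which genes of 1 pair of pools are not, and holds no spread between mice. The share was 41.3% with both signals at or above the filter level and 47.9% with quantile normalization, outside that interval, and inside it under the other 5. In place of the gene-level value, the exon-level probe set median turned the sign of Ndufb11 to -0.32, Rab11b to -0.25, Acp1 to 0.11 and Cyp4f15 to 0.062. For these 4 the cause was not tested. Of the log2 differences of 609 named genes, 4050 values under the alternatives moved by less than 0.58 and 50 by more, 47 of those with probe set medians. Of list medians, 693 values moved by less than 0.58 and 48 by more, those 48 in 32 of 106 lists and 22 of them with the filter at the 60th percentile, and none changed sign in a list whose median was at least 2-fold. Of probe set medians, 1186 values moved by less and 15 by more. Leaving out genes with identical gene-level values, chosen after seeing the data, gave a median difference of -0.10 over the remaining genes. It could not change the counts, 1272 and 1571, since genes with a difference of 0 are never called. With 1 pool per group no replicate could be left out. No paired analysis was possible because each group is 1 pool and the result comes from no test. Signals near the filter level of 3.79 limit the size of differences of dim genes.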
